A study of Ovis aries with 6 samples.

Results

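Unmethylated regions (UMRs) that kept their place and size in sheep perirenal fat from before birth to after weaning, and that are 1 to 3 kb long, are described here. They were taken from the authors' lists of UMRs, which hold 1 list per stage. A fetal autosomal UMR entered when it overlapped exactly 1 lamb UMR, when that lamb UMR overlapped no other fetal one, when neither UMR of the pair was over 1.5 times as long as the other, when no base lay in a DNA methylation valley (DMV, a long unmethylated stretch) of either stage, and when the merged pair had at least 1000 and under 3000 bases. Of 21446 autosomal fetal UMRs, 19712 overlapped exactly 1 of the 21199 lamb UMRs, 19512 formed exclusive pairs, 18667 met the length ratio and 18207 lay outside DMVs. The length limits left 12948 stable UMRs of 1 to 3 kb, with 1805 shorter and 3454 longer stable UMRs beside them. The lists were made from these same animals for their low methylation, so a low level is a property of the choice, and the demand for similar length in both lists leaves out UMRs that differed most between the stages.

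Perirenal adipose tissue, which surrounds the kidney, came from 6 pure-bred Merino sheep, wild type and untreated, and its DNA methylation was read by whole-genome bisulfite sequencing. The 3 lambs are given as 89 days old in the sample labels and 80 days in the series text, with tissue labelled as white adipose. Tissue of the 3 fetal animals is labelled as brown adipose and was collected 132 days post conception, with term at 150 days. Each sample is a separate animal, the fetuses and lambs came from different ewes, and the sample descriptions carry the tag VEH for each lamb and TV for each fetus, which cannot be told apart from stage. Brown fat burns fuel to make heat, and the series title names the change from brown to white fat as its subject.

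In mammalian genomes most CpGs, cytosines followed by guanine, carry a methyl group. UMRs are stretches where CpGs are dense and nearly free of it, and most of them are CpG islands at the starts of genes, where the absence of methylation is compatible with transcription and is kept in most cell types. Low-methylated regions (LMRs) have fewer CpGs and intermediate methylation, and often lie at distal regulatory elements. UMRs are named here by position on the sheep build Oar_v3.1, since no sequence or gene annotation of that build was used.

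The methylation level of a set of CpGs is given in percent, as methylated reads divided by covering reads, both summed over the set in 1 animal. A CpG was used when no animal had under 5 reads, which held for 6163112 of 24936679 autosomal positions. The summed coverage over all positions was 136938075 to 209550245 reads in the lambs and 140953569 to 195240369 in the fetal animals, where a read counts at each CpG it covers. Reads carry no mark of the molecule they came from, so precision from read numbers covers counting error only. The autosomes outside all listed regions stood at 79.8% ± 1.06 in lambs and 79.4% ± 0.197 in fetal animals (SD, n = 3 each). The stable UMRs of 1 to 3 kb hold 1006028 CpG positions, of which 234186 (23.3%) were usable, with 1750624 to 2469772 reads per animal. As the tissue is bulk, a change in the make-up of cells and a change within a cell type cannot be told apart.

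That the level was low follows from the choice, so it is no check of the lists. The level of the stable UMRs of 1 to 3 kb was 9.70%, 9.88% and 9.57% in lambs 1 to 3, against 9.86%, 9.46% and 9.56% in fetal animals 1 to 3. The ranges of the stages overlapped. The means were 9.72% ± 0.158 in lambs and 9.63% ± 0.208 in fetal animals (SD, n = 3 each). They differed by 0.0886 percentage points (exact permutation test, two-sided, p = 0.5). The smallest p that 3 animals against 3 allow is 0.1, so no level could pass 0.05 in this design. The difference was below the spread between animals of a stage. It ran from 0.0051 points without lamb 2 to 0.205 without fetal animal 1, and was 0.253 with equal weight per CpG, 0.346 with equal weight per UMR and -0.895 over the 1701 CpGs with at least 10 reads in each animal.

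That level was not uniform along a UMR. Each merged pair was divided into the margins, the 200 bases inside each end, and the inner part between them. The inner part stood at 6.47%, 6.58% and 6.35% in the lambs, against 6.57%, 6.43% and 6.31% in the fetal animals (exact permutation test, two-sided, p = 0.7). The margins stood at 27.5% ± 0.345 in lambs and 27.0% ± 0.548 in fetal animals, a difference of 0.509 points (SD, n = 3 each; exact permutation p = 0.3). The outer flanks, up to 2000 bases outside each end and outside any listed region, stood at 79.0% ± 0.812 in lambs and 78.6% ± 0.205 in fetal animals (SD, n = 3 each; exact permutation p = 0.5). None of the 3 zones separated the stages, and the flanks were close to the level of the autosomes outside the lists. Without lamb 2 the difference of the inner part turned from 0.0277 to -0.0292 points and that of the flanks from 0.357 to -0.0076 points, and without fetal animal 3 that of the inner part was -0.0360 points.

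In bins of 100 bases the fall in methylation was steep at the ends of the UMRs. From 1900 to 2000 bases outside, the level was 80.6% in lambs and 80.2% in fetal animals. In the last 100 bases outside the end it was 66.4% in lambs and 66.2% in fetal animals. In the first 100 bases inside it was 35.7% in lambs and 35.2% in fetal animals. The largest step between neighbouring bins thus lay at the listed end, which is itself placed by methylation. From 400 to 500 bases inside it was 6.98% in lambs and 6.88% in fetal animals. Over the same stretch the number of CpG positions per 100 bases went up from 1.30 at the far outside to 2.07 and 2.10 on either side of the end and to 4.66 at 400 to 500 bases inside. Across the end methylation thus dropped by 30.8 points in lambs and 31.0 points in fetal animals, while the CpG number barely changed, and the CpG number went on rising further in. The ranges of the stages overlapped in each of the 25 bins.

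**Figure D1:**
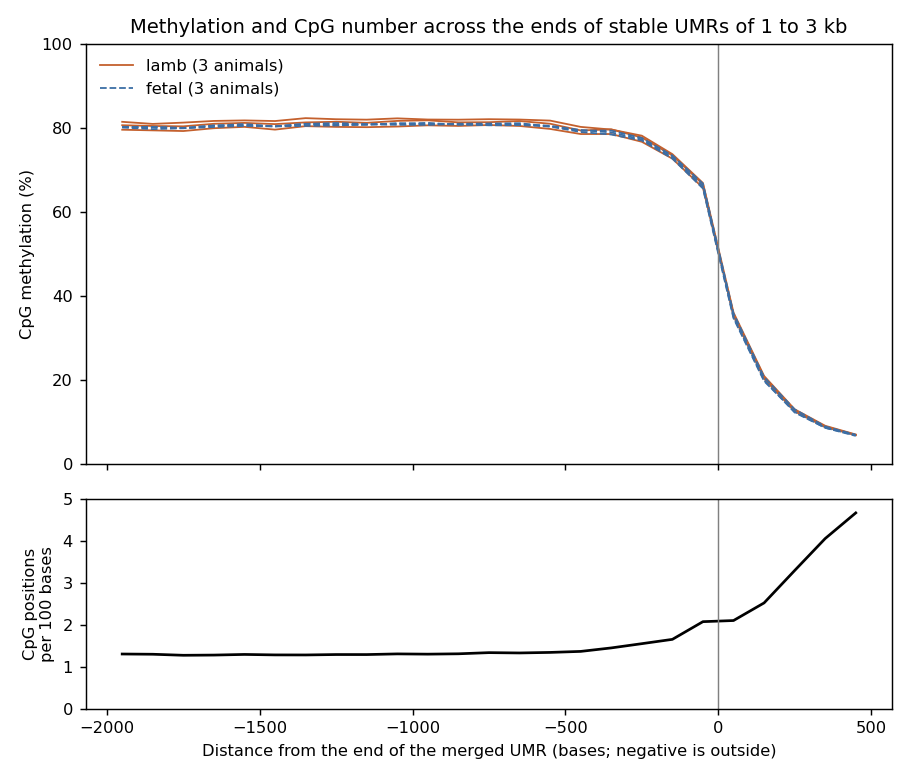
Methylation level in percent (upper panel, solid lines for the 3 lambs, dashed lines for the 3 fetal animals) and CpG positions per 100 bases (lower panel) against the distance in bases from the end of the merged UMR, with negative distances outside. The lines of the animals lie on each other, at about 80% outside and 6.98% in lambs and 6.88% in fetal animals at 400 to 500 bases inside, and CpG number goes on rising inside the end.

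Within a UMR the middle was usually the least methylated. Among the 4046 stable UMRs of 1 to 3 kb with at least 3 usable CpGs in each of 3 parts of equal length, the middle part was the lowest in 68.7% by the mean of the lambs and in 69.2% by the mean of the fetal animals. The median level of the middle part was 1.23% in lambs and 1.34% in fetal animals, against 11.1% in lambs and 10.9% in fetal animals for the outer parts. The middle was the highest of the 3 parts in 188 UMRs by the lambs and 202 by the fetal animals. A core nearly free of methylation between sloping shoulders was thus the common form among these 4046 UMRs in both stages. The ends are placed by methylation, so a lower middle is in part a property of the choice.

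Single CpGs showed the same contrast. In the inner part 87895 of 198532 usable CpGs (44.3%) had no methylated read in any of the 6 animals, against 5.40% in the margins and 0.0182% in the outer flanks. A mean level of 50% or more was found at 1.52% of inner CpGs, 16.0% of margin CpGs and 91.9% of flank CpGs. In the whole of these UMRs, 87 CpGs were at 80% or more in each of the 6 animals, of which 34 lay in the inner part. Methylated CpGs inside stable UMRs were thus few, and most of those found by the 50% limit lay in the margins.

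The UMRs were a set of dense CpG stretches of similar size in both lists, the latter by the choice. The merged length had a median of 1816 bases with quartiles of 1434 and 2261, and the lamb and fetal UMRs themselves had medians of 1747 and 1749 bases. A median of 95.3% of the merged bases stood in both lists. A UMR held a median of 73 CpG positions, from 30 to 237, and 30 is the lowest number in each of the UMR lists, while the LMR lists hold at most 29. The median density was 4.08 CpG positions per 100 bases, between 5.35 in the shorter and 3.15 in the longer stable UMRs, and 1.56 in LMRs shared 1 to 1 by the stages. The nearest other UMR lay at a median of 17263 bases and the nearest LMR at 4898 bases. Per megabase of chromosome there were 5.28 on average, from 2.61 on chromosome 6 to 13.2 on chromosome 14 and 13.5 on chromosome 11.

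The demand for overlap and similar length favours ends that lie close together in both lists. Both ends were identical in 3379 UMRs (26.1%), 1 end in 6266 (48.4%) and neither in 3303 (25.5%). The lamb UMR was the longer of the pair in 4578, the shorter in 4984, and of equal length in 3386. Bases listed in both stages stood at 8.20% ± 0.122 in lambs and 8.13% ± 0.175 in fetal animals (SD, n = 3 each; exact permutation test, two-sided, p = 0.6). Bases listed in lambs only stood at 42.3% in lambs and 53.7% in fetal animals, and bases listed in fetal tissue only at 52.5% in lambs and 41.0% in fetal animals. Those bases were listed for their level in the stage concerned, so their differences are given with no test.

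Set beside other classes, the stable UMRs of 1 to 3 kb had a small difference between the stages. The demand for similar length, which leaves out UMRs that differed most, was also made of the shorter and longer stable UMRs. It was not made of the shared LMRs, so the comparison with them is not on equal terms. The shorter stable UMRs stood at 16.3% in lambs and 16.0% in fetal animals, the longer ones at 9.91% in lambs and 9.66% in fetal animals, and the shared LMRs at 31.0% in lambs and 29.5% in fetal animals. The difference of 1.44 points in shared LMRs had no overlap between the stages (exact permutation p = 0.1). The stage difference of the 1 to 3 kb UMRs lay at -0.26 points relative to that of the shorter ones (exact permutation p = 0.5) and at -0.165 points relative to that of the longer ones (exact permutation p = 0.2). Relative to the shared LMRs it lay at -1.35 points (exact permutation test, two-sided, p = 0.1, the smallest p possible). In that last comparison the 3 lambs and the 3 fetal animals did not overlap, at -21.2, -21.7 and -20.84 points in the lambs against -19.6, -20.82 and -19.3 points in the fetal animals for the UMR level minus the LMR level, with lamb 3 and fetal animal 2 almost equal. With coverage minimums of 3 and 1 reads, with CpGs of high coverage left out and with equal weight per CpG, the stages overlapped there too, at -1.28, -1.20, -1.20 and -1.11 points (exact permutation p = 0.2 for each). Against the longer stable UMRs, the stages did not overlap with a coverage minimum of 1 read, at -0.232 points, and with CpGs of high coverage left out, at -0.164 points (exact permutation p = 0.1 for both).

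Single UMRs differed far more from each other than the stages did. Of the 12948, 12377 had at least 3 usable CpGs and were tested, 571 had fewer, and 179 of these had none. A tested UMR had a median of 16 usable CpGs and 141 reads per animal, a read counting at each CpG. The level over the 6 animals had a median of 8.68%, quartiles of 4.19% and 16.9% and a maximum of 60.7%. It lay under 5% in all 6 animals in 2013 UMRs (16.3%) and at 20% or more in all 6 in 1023 (8.27%), and 24 had no methylated read in any animal. Across the 12377 UMRs the level went with CpG density at a Spearman rho of -0.251 and with length at -0.168, given as a description, since the points share animals and libraries and shorter UMRs hold more margin per base.

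**Figure D2:**
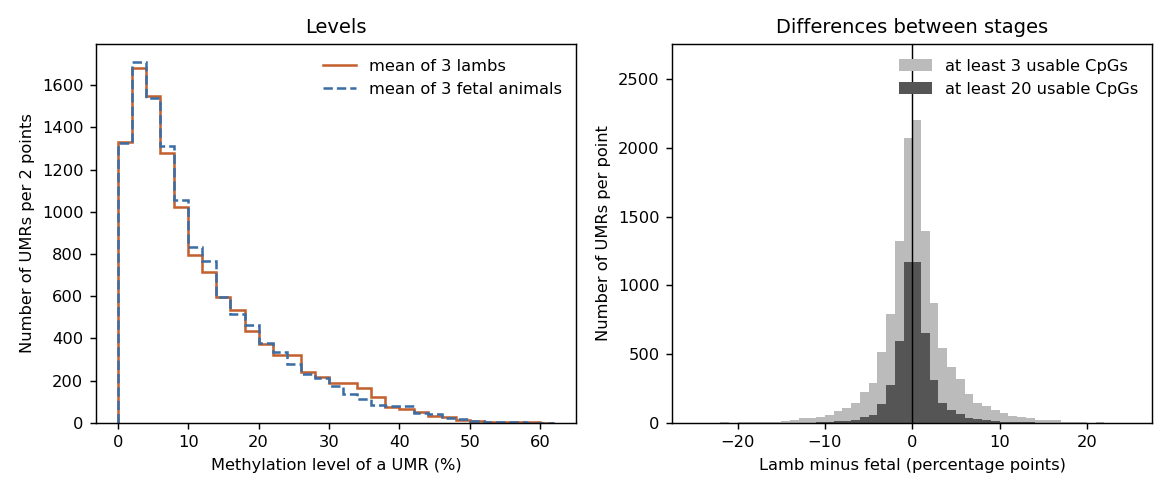
Left, number of tested stable UMRs of 1 to 3 kb per 2 points of methylation level, for the mean of the 3 lambs (solid) and of the 3 fetal animals (dashed). Right, number per percentage point of the lamb minus fetal difference, for all tested UMRs (light) and those with at least 20 usable CpGs (dark); both sets centre near 0, and the set with more CpGs is narrower.

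The extremes of level show what the lists hold at either side. Among UMRs with at least 20 usable CpGs, the lowest was on chromosome 20 from 30118518 to 30119906, with 0% in each lamb and 0%, 0% and 0.483% in the fetal animals, and ends identical in both lists. Its CpG density was 3.46 per 100 bases over 1389 bases. On chromosome 8 from 37439922 to 37442658 the level was 0%, 0% and 0.500% in the lambs and 0% in each fetal animal, again with identical ends. On chromosome 13 from 71788101 to 71790270 it was 0% in each lamb and 1.19%, 0% and 0% in the fetal animals. In these 3 UMRs at most 1 animal had any methylated read.

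At the other side, the UMR on chromosome 18 from 64422685 to 64423869 stood at 42.8%, 56.8% and 38.9% in lambs, against 51.4%, 46.2% and 52.4% in fetal animals, with 45.7% of its bases in both lists. On chromosome 10 from 85857571 to 85859559 the level was 33.3%, 37.8% and 44.7% in lambs, against 60.3%, 37.6% and 42.6% in fetal animals. On chromosome 14 from 2005214 to 2006410 it was 42.1%, 45.3% and 41.9% in lambs, against 42.2%, 44.2% and 39.8% in fetal animals. The stages overlapped in all 3, and the first and second overlap a listed LMR. Levels this high are far from the usual use of the word unmethylated, so for these regions the list name is not borne out by the merged interval.

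Over the merged interval, the UMRs richest in CpGs were not all low. With 237 CpG positions, that on chromosome 12 from 45019650 to 45022230 stood at 13.7% ± 1.27 in lambs and 12.2% ± 2.35 in fetal animals. That on chromosome 19 from 54748720 to 54750120 holds 228 in 1401 bases, but 4 were usable, at 32.6% ± 11.1 in lambs and 28.2% ± 5.34 in fetal animals. None of those 4 lay in bases of both lists, so that level does not describe the part listed in both stages. On chromosome 7 from 82810948 to 82813550, a UMR with 227 positions stood at 2.93% ± 1.35 in lambs and 1.28% ± 0.809 in fetal animals (SD, n = 3 each). The stages overlapped in these 3. A UMR on chromosome 5 from 36422472 to 36424936, with 224 positions and 54 of them usable, stood at 3.85%, 5.21% and 5.11% in lambs, against 7.50%, 5.71% and 5.31% in fetal animals, with no overlap and an adjusted p of 0.581 in the test described below.

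The UMRs next to the limits of length are given as a description. The 3 shortest, on chromosomes 10, 13 and 14, are each 1000 bases long and stood at 18.2%, 39.8% and 20.2% in lambs, against 20.7%, 31.0% and 23.6% in fetal animals. The 3 just under the limit are each 999 bases long, on chromosomes 1, 12 and 14. They stood at 1.18%, 11.9% and 2.42% in lambs, against 0%, 9.82% and 12.02% in fetal animals, each below the lowest of the 3 shortest members. These levels rest on 7, 10 and 5 usable CpGs, and those of the 3 shortest members on 11, 5 and 12. As a class the shorter stable UMRs stood higher than the 1 to 3 kb UMRs, at 16.3% against 9.72% in lambs and 16.0% against 9.63% in fetal animals. The 3 longest, each 2998 bases long on chromosomes 2, 10 and 11, stood at 12.5%, 8.96% and 3.94% in lambs, against 15.4%, 8.23% and 5.14% in fetal animals. The 3 just over it, of 3000, 3000 and 3001 bases on chromosomes 9, 9 and 2, stood at 8.92%, 14.3% and 13.9% in lambs, against 9.11%, 10.1% and 11.7% in fetal animals.

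CpG density and surroundings went with the level of the UMRs in the same way in both stages. LMRs and the ends of UMRs were listed from the methylation of these same animals. A UMR that overlaps an LMR also counts as having an LMR nearby. The gaps by LMR and by ends are thus partly set by the listing and are a description. When the UMRs were put into 4 groups of equal number by density, the inner part stood at 11.9%, 6.49%, 5.09% and 4.40% from the sparsest to the densest in lambs, and at 11.5%, 6.47%, 5.17% and 4.49% in fetal animals. By length, the inner part of UMRs under 1500 bases stood at 8.11% in lambs and 7.93% in fetal animals, and that of the UMRs of the longest of 4 length classes at 6.04% in lambs and 5.96% in fetal animals. The 3656 UMRs (28.2%) with an LMR within 2000 bases had an inner level of 10.4% ± 0.229 in lambs and 10.1% ± 0.341 in fetal animals, against 5.21% ± 0.0891 in lambs and 5.19% ± 0.0941 in fetal animals for those with none. UMRs with identical ends in both lists had an inner level of 4.27% in lambs and 4.29% in fetal animals, and the rest 7.31% in lambs and 7.26% in fetal animals (SD, n = 3 each). These gaps held in each of the 6 animals, while in these groups the means of lambs and fetal animals lay at most 0.338 points apart.

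The level also went with the place on the chromosome. The inner part of the 1405 UMRs in the last 5 Mb of a chromosome stood at 11.98%, 12.3% and 11.4% in lambs and 12.1%, 11.7% and 11.4% in fetal animals. The 10771 UMRs away from both ends stood at 5.76%, 5.86% and 5.69% in lambs and 5.84%, 5.71% and 5.59% in fetal animals. The 772 UMRs in the first 5 Mb lay between, at 8.23% ± 0.201 in lambs and 8.25% ± 0.306 in fetal animals (SD, n = 3 each). The level of UMRs near the far end was thus higher by 5.73 to 6.40 points, depending on the animal, in both stages. The outer flanks differed less, at 79.9% in lambs and 79.4% in fetal animals in the last 5 Mb, against 78.8% in lambs and 78.4% in fetal animals away from the ends. Shared LMRs stood at 32.3% in lambs and 31.0% in fetal animals in the last 5 Mb, against 30.5% in lambs and 29.1% in fetal animals away from the ends.

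UMRs near the far end lay close to LMRs more often, and both features went with a higher level. As above, the grouping by LMR rests on lists made from these same animals. An LMR lay within 2000 bases of 49.0% of the UMRs in the last 5 Mb and of 24.6% of those away from the ends. With no such LMR, the inner level was 8.32% ± 0.376 in lambs and 7.96% ± 0.289 in fetal animals in the last 5 Mb, against 4.90% ± 0.0669 in lambs and 4.89% ± 0.0789 in fetal animals away from the ends. With an LMR nearby it was 15.8% ± 0.550 in lambs and 15.6% ± 0.487 in fetal animals in the last 5 Mb, against 9.04% ± 0.163 in lambs and 8.70% ± 0.366 in fetal animals away from the ends (SD, n = 3 each). The gap by place was thus present in both groups. It also held by chromosome, with the last 5 Mb above the part away from both ends in all 6 animals on 24 of 26 chromosomes. It did not on 9 and 14. Chromosome 21 had the widest gap, with 72 UMRs in its last 5 Mb at 25.3% in lambs and 25.6% in fetal animals. Away from both ends it stood at 5.81% in lambs and 5.85% in fetal animals. On chromosomes 1, 9 and 26 the last 5 Mb held under 20 UMRs.

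**Figure D3:**
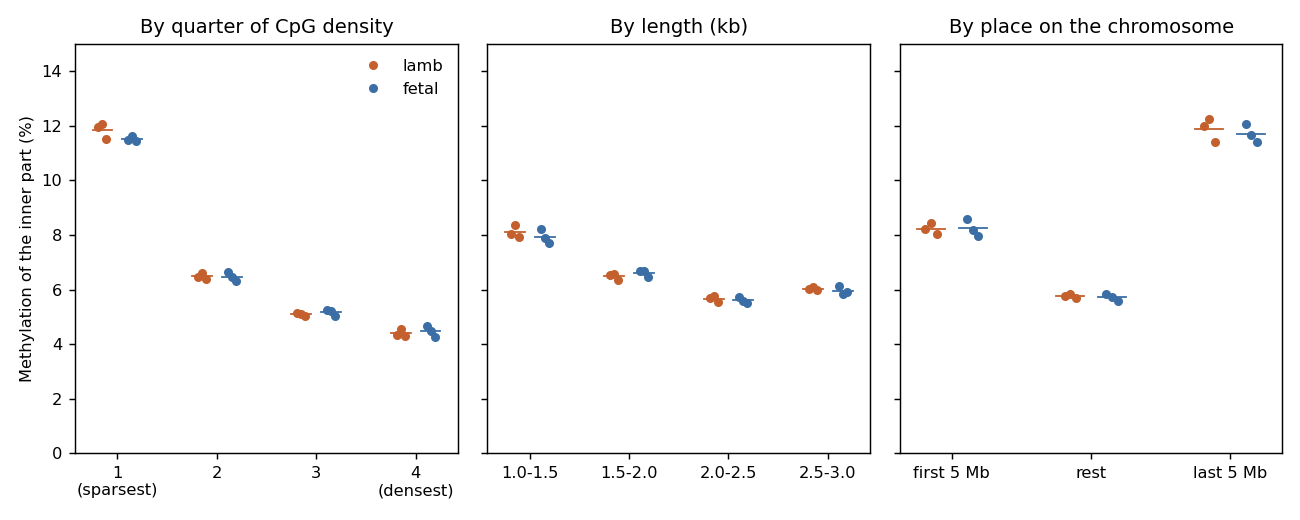
Methylation of the inner part in percent, each point 1 animal and each bar the mean of 3, lambs left and fetal animals right in each pair, for groups of stable UMRs of 1 to 3 kb by CpG density, by length and by place on the chromosome. The sparsest UMRs and those of the last 5 Mb stand highest in both stages, and the means of lambs and fetal animals lie at most 0.338 points apart in any group.

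Differences between the stages in single UMRs were mostly within the spread between animals. The lamb minus fetal difference had a median of 0.153 points and quartiles of -1.39 and 1.92. By their means 6571 UMRs (53.1%) were higher and 5782 lower in lambs. Over all tested UMRs and LMRs the median difference was 0.822 points and 56.3% were higher in lambs, so the excess is not particular to these UMRs. Within a stage the animals had a median SD of 2.47 points, and 1.56 in the 4902 UMRs with at least 20 usable CpGs. A difference of at least 10 points was seen in 450 UMRs (3.64%), but in 42 (0.857%) of those with at least 20 usable CpGs. Between any 2 animals, the median absolute difference over those 4902 UMRs was 1.65 to 1.69 points for pairs of lambs, 1.61 to 1.77 for a lamb with a fetal animal and 1.59 to 1.71 for pairs of fetal animals. Pearson's r over these UMRs was 0.846 to 0.872 for a lamb with a fetal animal, 0.861 to 0.881 within lambs and 0.869 to 0.879 within fetal animals, a description over regions that share their libraries. By the median absolute difference, an animal was thus about as far from its own stage as from the other. Pearson's r reached lower values across the stages, and the choice of UMRs alike in both lists favours likeness.

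No stable UMR of 1 to 3 kb was called different between the stages. Each region with at least 3 usable CpGs was tested by a quasi-binomial model of its methylated and unmethylated reads, lamb against fetal, with its dispersion moderated as in limma, and p-values were adjusted by Benjamini-Hochberg over all 78988 merged UMRs and LMRs tested. A call needed at least 10 points of difference and an adjusted p under 0.05. Of the 12377 UMRs tested 0 were called, against a background of 0.00380% (3 of 78988 regions, 0.00253% called higher and 0.00127% called lower in lambs), and the smallest adjusted p was 0.113. limma on log ratios of reads also called 0 (background 0 of 78988), and edgeR's quasi-likelihood test called 1 (background 5 of 78988, 0.00633%). At an unadjusted p under 0.05, 925 (7.47%) were found, against a background of 11.3%, while limma found 713 (5.76%, background 10.2%) and edgeR 848 (6.85%, background 10.3%). Of the 925, 552 (4.46%) were higher in lambs, against a background of 7.16%, and 373 (3.01%) lower, against 4.10%. The levels of the stages did not overlap in 1520 (12.3%), against a background of 16.0%. With higher lambs there were 845 (6.83%, background 9.81%) and with lower lambs 675 (5.45%, background 6.16%). Each share was below the background, which holds UMRs and LMRs that differ in listing between the stages and which the rule for stable UMRs leaves out, so the lower shares are no result about these UMRs.

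Where the single tests gave a small p, the listed width went the other way. Of the 552 UMRs higher in lambs at an unadjusted p under 0.05, 378 (68.5%) were shorter in the lamb list, and of the 373 lower in lambs, 229 (61.4%) were longer in it. Among all tested UMRs 38.2% were shorter and 35.5% longer in the lamb list. Width and level come from the same reads, so this is a description.

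The 6 UMRs of smallest unadjusted p in each direction, with at least 10 usable CpGs and no overlap of the stages, show the size of such differences. The highest in lambs was on chromosome 23 from 54924357 to 54926536, at 44.9%, 49.6% and 47.5% in lambs, against 25.7%, 26.4% and 33.7% in fetal animals. On chromosome 10 from 86190394 to 86192564 the level was 24.7%, 24.4% and 18.6% in lambs, against 7.12%, 13.3% and 9.90% in fetal animals. On chromosome 2 from 183997527 to 183999497 it was 43.2%, 39.8% and 41.1% in lambs, against 25.0%, 30.7% and 20.6% in fetal animals. All 3 were shorter in the lamb list. On the bases of both lists the difference on chromosome 23 was 7.50 points in place of 18.7, and that on chromosome 2 was 1.34 in place of 15.97, with overlap of the stages in both. On chromosome 10 it was 7.59 in place of 12.5, without overlap. On chromosome 6 from 112769308 to 112770890 the level was 32.7%, 25.7% and 25.3% in lambs, against 12.2%, 10.4% and 12.6% in fetal animals. Here all 12 usable CpGs lay in both lists, so the difference of 16.2 points did not come from bases listed in 1 stage. The other 2, on chromosome 11 from 42685274 to 42686876 and on chromosome 21 from 43097713 to 43098886, were 7.49 and 10.6 points higher in lambs, and 4.39 and 7.16 points on the bases of both lists. Adjusted p-values of these 6 ran from 0.182 to 0.188 (limma-moderated quasi-binomial test).

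Lower in lambs, the UMR of smallest p was on chromosome 2 from 2191179 to 2193147, at 20.1%, 17.4% and 17.0% in lambs, against 33.6%, 37.2% and 42.2% in fetal animals, with an adjusted p of 0.113 in the same test. The gap between the stages was wider than the range within either, and on the bases of both lists the difference was -18.5 points. On chromosome 2 from 238539284 to 238541141 the level was 26.2%, 20.2% and 22.1% in lambs, against 40.1%, 46.6% and 45.5% in fetal animals. On chromosome 4 from 43299058 to 43300366 it was 10.1%, 20.2% and 14.8% in lambs, against 39.7%, 30.5% and 45.6% in fetal animals. These gaps of 19.5 to 23.6 points are larger than any spread within a stage there, yet none passed the adjusted threshold. On chromosome 5 from 40069017 to 40071726 the level was 3.86%, 1.49% and 2.43% in lambs, against 10.2%, 10.3% and 7.31% in fetal animals. The remaining pair, on chromosome 3 from 23836467 to 23837981 and on chromosome 5 from 107883578 to 107886460, were 3.05 and 4.09 points lower in lambs. They carried 2273 and 3402 reads per animal against a median of 141, and whether reads of other copies of these sequences are included was not tested. In all, 21 of the tested UMRs carried 1000 reads per animal or more.

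**Figure D4:**
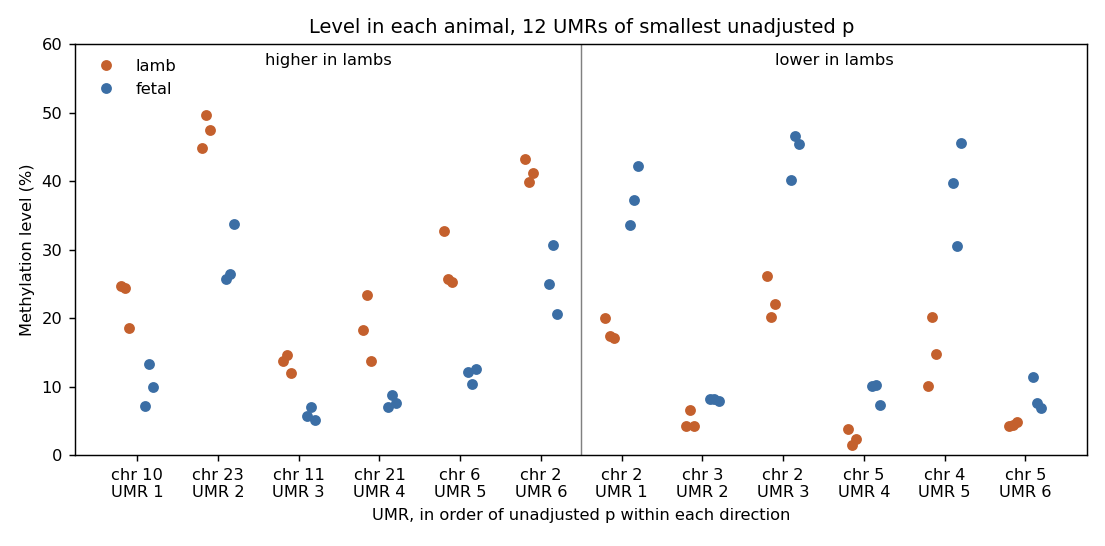
Methylation level in percent in each animal (lambs left, fetal animals right at each position) for the 12 stable UMRs of 1 to 3 kb with the smallest unadjusted p, 6 higher in lambs and 6 lower, in the order of p and with their chromosome. The stages do not overlap in any, as the choice demands, and no adjusted p was below 0.113.

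With lower coverage minimums more CpGs entered and a few of these UMRs were called; they were chosen after their values were seen. With at least 3 reads in each animal 2 of 12930 UMRs were called, against a background of 20 of 134104 regions (0.0149%). With at least 1 read 5 of 12947 were called, against 31 of 153994 regions (0.0201%). With at least 5 reads edgeR called 1 of 12377, against 5 of 78988 regions. With so few calls, no difference from the background is read, and the calls are given as single cases. The UMR on chromosome 15 from 37822326 to 37824304, 1979 bases with identical ends in both lists, was called in both and by edgeR, where the background was 0.00633%. With at least 3 reads it stood at 2.57%, 2.39% and 2.34% in lambs, against 11.8%, 19.7% and 15.5% in fetal animals over 38 CpGs, with an adjusted p of 0.0198. With at least 1 read it stood at 2.01%, 2.11% and 2.33% in lambs, against 10.1%, 16.4% and 12.3% in fetal animals. The lambs were thus nearly free of methylation here and the fetal animals were not.

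In windows of 200 bases across that UMR, with every CpG that had at least 1 read in each animal, the difference lay in a short stretch. From 1200 to 1400 bases after its start, over 9 CpGs, the level was 3.08%, 2.27% and 3.92% in lambs, against 38.3%, 40% and 39.3% in fetal animals. Fetal animals 2 and 3 also stood at 16.5% and 15.3% from 400 to 600 bases, where fetal animal 1 was at 0% and the lambs at 0%, 1.47% and 0%. In the window from 200 to 400 bases the lambs averaged 0.662% and the fetal animals 0%. The last window, of 1 CpG and 7.17 reads per animal, had 27.8%, 50% and 42.9% in lambs and 33.3%, 37.5% and 100% in fetal animals. The UMR overlaps a differentially methylated region (DMR) of the authors' hypo list.

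The others called with at least 1 read had higher levels than that UMR in both stages. The UMR on chromosome 2 from 2191179 to 2193147, named above, stood at 20.1% ± 2.78 in lambs and 38.1% ± 5.24 in fetal animals, and was also called with at least 3 reads. That on chromosome 6 from 114068131 to 114069206 stood at 20.9% ± 0.834 in lambs and 37.8% ± 3.17 in fetal animals. That on chromosome 5 from 90384476 to 90386350 stood at 16.2% ± 1.90 in lambs and 28.7% ± 0.917 in fetal animals (SD, n = 3 each). These 3 are longer in the lamb list. The UMR on chromosome 22 from 47345104 to 47346290, shorter in the lamb list, went the other way, at 37.9% ± 1.88 in lambs and 22.6% ± 3.87 in fetal animals. Adjusted p-values of these 4 were 0.0255 to 0.0469 (quasi-binomial test with limma's moderation). All these values are over the merged interval, which holds bases listed in 1 stage only. Levels on the bases of both lists were not worked out with this minimum. On chromosome 6 the window means were 22.2%, 18.6%, 11.5%, 18.6%, 27.0% and 36.8% in lambs from start to end. In fetal animals they were 63.8%, 23.1%, 23.4%, 14.8%, 44.4% and 66.1%, so the widest gaps lay in the first and last windows.

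**Figure D5:**
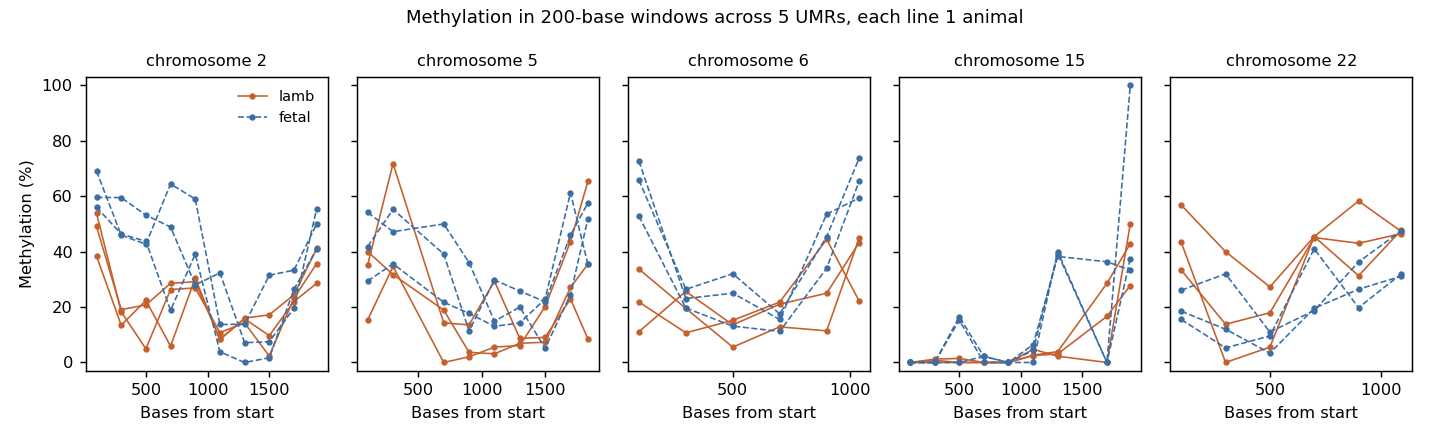
Methylation in percent in windows of 200 bases against the distance in bases from the start of the UMR, 1 line per animal (solid for lambs, dashed for fetal animals), in the 5 stable UMRs called with at least 1 read per CpG. On chromosome 15 the stages part at 1200 to 1400 bases, at 2.27% to 3.92% in lambs and 38.3% to 40% in fetal animals; in the others the means of the stages differ over several windows, and on chromosome 6 most in the first window, at 22.2% in lambs and 63.8% in fetal animals.

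Animals of 1 stage could also differ widely from each other. Among UMRs with at least 20 usable CpGs, the widest spread was on chromosome 9 from 15854816 to 15856658, at 34.8%, 14.5% and 55.1% in lambs, against 48.0%, 29.3% and 32.6% in fetal animals. On chromosome 23 from 57069058 to 57070060 the level was 20.2%, 41.3% and 11.2% in lambs, against 13.7%, 36.2% and 37.1% in fetal animals. On chromosome 11 from 60955274 to 60956446 it was 36.1%, 51.4% and 13.6% in lambs, against 33.9%, 26.4% and 14.9% in fetal animals. In these 3 UMRs animals of the same stage lay far apart, lamb 2 and lamb 3 at 14.5% and 55.1% on chromosome 9, and the stages overlapped. Genotype of the animals at these places was not analysed here.

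DMRs of the authors lay on under 1% of the stable UMRs of 1 to 3 kb in each direction. The lists are named hyper and hypo without a statement of which stage is the base, so hyper is taken to mean higher in lambs, from the direction of the levels in these animals. Hyper DMRs overlapped 85 of the 12948 UMRs by at least 1 base (0.656%, exact Clopper-Pearson 95% interval 0.525% to 0.811%), against 1.30% of the longer and 0.499% of the shorter stable UMRs and 0.119% of the shared LMRs. Hypo DMRs overlapped 111 (0.857%, 0.706% to 1.03%), against 0.869% of the longer and 0.222% of the shorter stable UMRs and 0.0820% of the shared LMRs. Since the classes differ in length, the number overlapped per megabase of the class is given too. For hyper DMRs it was 3.52 in the 1 to 3 kb UMRs, 2.94 in the longer, 6.19 in the shorter and 1.31 in the shared LMRs. For hypo DMRs it was 4.59 in the 1 to 3 kb UMRs, 1.96 in the longer, 2.75 in the shorter and 0.905 in the shared LMRs. The order of the classes thus depends on whether regions or bases are counted. The values of the shorter stable UMRs rest on few regions, 9 with a hyper and 4 with a hypo DMR. No UMR had both. From the side of the lists, 16.2% of 526 hyper and 22.4% of 496 hypo DMRs lay on these UMRs. With at least 100 bases of overlap 41 UMRs (0.317%) were left for hyper and 48 (0.371%) for hypo DMRs.

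The DMRs sat toward the ends of the UMRs. Of the bases that hyper DMRs cover in these UMRs 54.1% lay in the margins, which make up 19.97% of the bases of the same UMRs, and for hypo DMRs 57.8% against 20.3%. The lamb UMR was the shorter of the pair in 72 of the 85 with a hyper DMR and the longer in 94 of the 111 with a hypo DMR. Over the whole UMR, lambs had the higher mean in 73 of 81 tested with a hyper DMR (median difference 2.78 points) and the lower mean in 88 of 108 tested with a hypo DMR (median -2.07 points). UMRs, DMRs and levels come from the same 6 animals, and the reading of the list names rests on such levels, so these counts carry no test and are no check of the names.

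The UMRs given here are, per DMR list, the 4 with the largest difference in its direction and at least 5 usable CpGs. Over all tested UMRs with a DMR the median difference was 2.78 points for hyper and -2.07 for hypo DMRs. Some of those given differed by more than their animals' spread, and others did not on the bases of both lists. With a hyper DMR, the UMR on chromosome 11 from 22740745 to 22741940, with identical ends in both lists, stood at 29.4%, 41.9% and 37.7% in lambs, against 19.2%, 25.0% and 11.8% in fetal animals. That on chromosome 13 from 50847925 to 50849784 stood at 21.0%, 41.8% and 16.7% in lambs, against 11.4%, 7.19% and 11.7% in fetal animals, with lamb 2 apart from the other lambs. Those on chromosome 3 from 3201522 to 3203090 and on chromosome 11 from 8222976 to 8224628 were 17.0 and 15.8 points higher in lambs, but 4.68 and -4.24 points on the bases of both lists. With a hypo DMR, the UMR on chromosome 11 from 56739692 to 56740819 stood at 25.0%, 17.5% and 26.2% in lambs, against 46.6%, 48.6% and 42.6% in fetal animals. That on chromosome 14 from 7513899 to 7514936 stood at 25.0%, 20.7% and 26.5% in lambs, against 40.4%, 43.5% and 43.3% in fetal animals. That on chromosome 11 from 52451852 to 52453814 was 16.9 points lower in lambs over 5 CpGs, and the UMR on chromosome 2 from 2191179, given above, is the other with a hypo DMR. On the bases of both lists the first of these was 14.3 points lower in lambs, that on chromosome 14 was 11.3 and that on chromosome 11 from 52451852 was 9.54, the last 2 with overlap of the stages and over 3 and 2 CpGs. Adjusted p-values of the UMRs in this paragraph were 0.113 to 0.410 (limma-moderated quasi-binomial test).

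The mean level of a chromosome's stable UMRs of 1 to 3 kb was the higher in lambs on 18 of the 26 chromosomes, with differences from -0.349 to 0.669 points. Leaving out UMRs with a DMR gave a stage difference of 0.0944 points over 12752 UMRs, and leaving out those within 5 Mb of a chromosome end gave 0.0871 points (exact permutation p = 0.5 and 0.6; both chosen after seeing the data).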

How the data were processed

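Whole-genome bisulfite libraries of 3 lambs and 3 fetuses were mapped to Oar_v3.1, as the series text states. BWA, Picard, Oar_v3.1 and hg19 appear in the submitters' processing notes with no role for each, and how methylation and regions were called was not given in the sources used here. For every CpG position the authors deposited unnormalized counts of methylated and covering reads per animal, and the columns carry the sample descriptions. The authors' lists of UMRs, LMRs, DMVs and DMRs hold positions alone, 1 list per stage or direction, so they carry no replicate error.

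From these counts, levels were summed per animal over CpGs that had at least 5 reads in every animal and compared by exact permutation tests, two-sided. UMRs of both stages were merged, and LMRs likewise where they overlapped no merged UMR. Each autosomal region with at least 3 usable CpGs entered 1 quasi-binomial test, with a prior dispersion of 1.43 on 8.99 degrees of freedom and no dispersion below 1. The test was tried on simulated data. Named UMRs were those called, the 4 with most CpGs and those next to the length limits. Per direction, the 6 of smallest p with at least 10 usable CpGs and no overlap of stages were named. The 3 highest, lowest and most variable with at least 20 usable CpGs were added. Per DMR list, up to 4 with at least 5 usable CpGs were named, those of largest difference in the direction of the list. The members, groups and lists were chosen with earlier results of these data known. Gene lists could not be placed without an annotation of Oar_v3.1 and were not used. Alternatives were other coverage minimums and weights, each animal left out, other intervals and minimums, the replicate number as a block, limma on log2 of methylated plus 1 over unmethylated plus 1 reads, and edgeR's quasi-likelihood test with a term per animal. Python 3.11.15, numpy 2.4.6, scipy 1.17.1, pandas 2.3.3, R 4.3.3, limma 3.58.1 and edgeR 4.0.16 were used.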

Additional observations from a re-analysis of the deposited data

How the results depend on the processing

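Of the alternatives run, a minimum of 10 reads per CpG, which left 1701 CpGs in these UMRs, turned the sign of the stage difference, to -0.895 points over whole UMRs, -1.04 in the inner part and -0.384 in the margins, and that of the difference from shorter stable UMRs to 1.60 (exact permutation p = 0.2 to 0.9). Without an animal, the difference over whole UMRs was 0.0051 (without lamb 2) to 0.205 points (without fetal animal 1), in the inner part -0.0360 to 0.0966, in the margins 0.291 to 0.817, in the flanks -0.0076 to 0.794, and against the shorter, longer and LMR classes -0.577 to -0.0436, -0.222 to -0.120 and -1.82 to -1.05. No UMR was called without any 1 animal. With equal weight per UMR the difference was 0.346 points, and with equal weight per CpG 0.253 (exact permutation p = 0.2 for both). Called UMRs, 0 of 12377 with a minimum of 5 reads, came to 2 of 12930 when 3 reads sufficed, to 5 of 12947 when 1 read did, and to 1 of 12377 with edgeR. Over all regions the calls were 3 of 78988, 20 of 134104, 31 of 153994 and 5 of 78988 in the same order. The overlap with hyper DMRs was 0.317% with at least 100 bases and 0.348% on bases of both lists, and with hypo DMRs 0.371% and 0.456%. These settings demand longer overlaps or cover fewer bases by construction; the cause of the other changes was not tested. Replicate numbers name separate animals. As a replicate block the number gave 0.0886 points (exact sign-flip permutation p = 0.75) and 0 called UMRs. Over these UMRs the correlation of deviations was -0.00987 to 0.0137 between same-numbered animals and -0.0160 to 0.00863 between differently numbered ones. Whether same-numbered animals shared handling is not given and was not tested. Coverage of about 5 to 8 reads per CpG limits what single UMRs can show, and 571 could not be tested.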
